A study of Homo sapiens with 10 samples.

Results

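Glycolysis splits glucose into pyruvate and lactate and yields ATP without oxygen. Glucose enters through membrane carriers, is phosphorylated and so trapped in the cell by hexokinases, and is then cut, oxidised and dephosphorylated by a chain of abundant cytosolic enzymes. Monocytes and macrophages rely on this pathway when they are activated, and many of its genes are targets of the hypoxia-inducible transcription factors and of MYC. The genes described here were a named set of 10: the glucose carrier SLC2A3, the hexokinases HK2 and HK3, the isomerase GPI, and the later enzymes ALDOA, TPI1, PGK1, ENO1, PKM and LDHA. They were taken through probe sets of the array that the platform annotation pairs with 1 of these symbols alone. Such a probe set was found for 9 of the 10 genes, 1 each, all 9 were among the 7708 probe sets tested, and GPI was not analysed here.

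The cells were U937, a human monocytic line, and all 5 groups had been differentiated with interferon gamma. Control cells had no cross-linking listed and no time given. The other groups had either the low-affinity IgG receptor CD32 or the high-affinity IgG receptor CD64 cross-linked, with RNA taken at 2 h or at 6 h. The labels do not name the cross-linking agent. There were 2 arrays per group and 10 in all, from 1 cell line, and whether a duplicate came from another culture is not stated. The p-values reflect the spread of these arrays alone, which may be technical. The source name of 1 CD32 2 h array reads otherwise, and its title and description were followed. In bulk RNA, fewer cells with a transcript and less of it per cell cannot be told apart.

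Signal is the submitters' scaled intensity per probe set, on a linear scale. Levels of different genes are not compared, since probe sets differ in brightness for the same amount of RNA. Differences are log2 differences of group means from limma after values under a floor of 37.5 were set to the floor. Errors on log2 differences are standard errors, other errors are SD, and n = 2 arrays per group throughout. A gene is said to rise or fall, or to be called, where the two-sided p-value from limma, adjusted over all 7708 probe sets by the method of Benjamini and Hochberg, was under 0.05. Median signal ran from 101 to 153 over the 10 arrays. Of the 6 monocyte and myeloid markers on the array 4 were above the floor on 10 of 10 arrays (ITGAM, SPI1, CSF1R and FCGR2A), while CD14 was above it on 3 and MPO on 2. Of 23 markers of other cell types 5 were above the floor on all arrays, the brightest of them NKG7 at 1409 to 2300. The summed signal of the natural killer list, most of it from NKG7, was 1547 and 1646 in CD64 2 h against 2337 and 2407 in control. That of the erythroid and platelet list was 454 and 593 against 258 and 264. The monocyte and myeloid list also differed, with 1179 and 1199 in CD64 2 h and 2234 and 2314 in CD32 6 h, against 1484 and 1687 in control. The part of these differences in the results was not tested.

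The arrays of CD64 at 6 h read bright transcripts lower than the other arrays did. Their highest signals were 14536 and 15868, against 27304 to 37995 on the other 8 arrays, while the 95th percentile differed little (3074 and 3148, against 3093 to 3388). The 9 probe sets of added bacterial and phage transcripts averaged 9.03 on the log2 scale in CD64 6 h, the lowest group, and 12.11 in CD32 6 h, the highest, with 10.38 in control. Actin signal at the 3' end over that at the 5' end, a measure of RNA integrity, was also lowest in CD64 6 h (1.12) and highest in CD32 6 h (1.99), with 1.30 in control. Because 6 of the 9 glycolytic genes lie at the bright end, each change is given beside the median change of the 200 probe sets nearest to it in mean signal, a description with no test. These are called equally bright below, but at the bright end the match is loose. Their mean signals spanned 5350 to 26411 for ALDOA and ENO1, 5332 to 24367 for LDHA and 4913 to 16856 for PGK1, against 842 to 1029 for HK2.

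Promoter sequence was available for 9 of the 10 genes, SLC2A3 being the one without, as 14 windows of 250 bases before annotated start sites (RefSeq, build GRCh38.p14). The letters ACGTG, one form of the core that hypoxia-inducible factors bind, were searched on both strands. They also lie within CACGTG, the E-box that MYC binds. ACGTG was present in 9 of the 14 windows, against 18.5% of all 35116 windows of the same length. By gene it was present in 6 of the 9, and no share over all genes was computed. Some genes had more than 1 window, and the ALDOA windows chr16:30064029-30064278 and chr16:30064247-30064496 overlapped. CACGTG was present in 3 windows, against 6.35% of all. The other form of the core, GCGTG, was present in 6 windows, against 32.2% of all. The first windows of HK2 (chr2:74833877-74834126, plus strand), PGK1 (chrX:78103998-78104247, plus strand) and LDHA (chr11:18394313-18394562, plus strand) are shown because they hold 2, 2 and 3 such sites, with HK2 the gene that fell in every comparison with control and PGK1 and LDHA examples of the bright enzymes. Capitals mark ACGTG or its complement, written 5' to 3'.
HK2: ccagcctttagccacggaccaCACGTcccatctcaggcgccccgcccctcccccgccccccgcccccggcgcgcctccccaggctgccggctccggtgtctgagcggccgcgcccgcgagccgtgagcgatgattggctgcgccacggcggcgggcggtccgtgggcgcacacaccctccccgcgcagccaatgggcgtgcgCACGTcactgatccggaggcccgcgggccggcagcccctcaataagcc
PGK1: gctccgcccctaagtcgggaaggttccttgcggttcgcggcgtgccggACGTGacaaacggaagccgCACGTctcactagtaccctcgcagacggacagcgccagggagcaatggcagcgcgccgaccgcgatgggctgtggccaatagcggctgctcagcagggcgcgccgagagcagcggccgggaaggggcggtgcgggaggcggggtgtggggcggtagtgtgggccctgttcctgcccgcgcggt
LDHA: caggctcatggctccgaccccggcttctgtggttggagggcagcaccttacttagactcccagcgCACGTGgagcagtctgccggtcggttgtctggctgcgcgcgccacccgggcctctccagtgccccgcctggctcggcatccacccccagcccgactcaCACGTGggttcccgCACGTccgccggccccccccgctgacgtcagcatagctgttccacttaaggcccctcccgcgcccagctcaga
The windows of HK3 and PKM held neither ACGTG nor GCGTG. A match is a description of these letters, and binding was not measured.

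Glucose uptake itself was not measured, and the transcript read for it was SLC2A3, which encodes GLUT3, a carrier with high affinity for glucose. Its signal was 1482 and 1759 in control, 671 and 652 after 2 h of CD32, 1509 and 1921 after 6 h of CD32, 597 and 560 after 2 h of CD64, and 588 and 515 after 6 h of CD64. The control and CD32 6 h arrays overlapped at the high level, and the other 6 arrays lay between 515 and 671. SLC2A3 fell 2.44-fold after 2 h of CD32 (log2 -1.29 ± 0.14, adjusted p = 0.000146, limma), 2.79-fold after 2 h of CD64 (-1.48 ± 0.14, adjusted p = 9.41e-05) and 2.93-fold after 6 h of CD64 (-1.55 ± 0.14, adjusted p = 3.07e-05). After 6 h of CD32 the difference from control was 0.08, with a 95% interval of -0.23 to 0.39. Equally bright probe sets had a median change between -0.02 and 0.09 in the 4 comparisons. From 2 h to 6 h SLC2A3 rose 2.57-fold with CD32 (1.36 ± 0.14, adjusted p = 0.000591), and with CD64 it was not called (log2 -0.07, interval -0.38 to 0.24). The change over time differed between the receptors (interaction -1.43 ± 0.20, adjusted p = 0.00128).

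**Figure D1:**
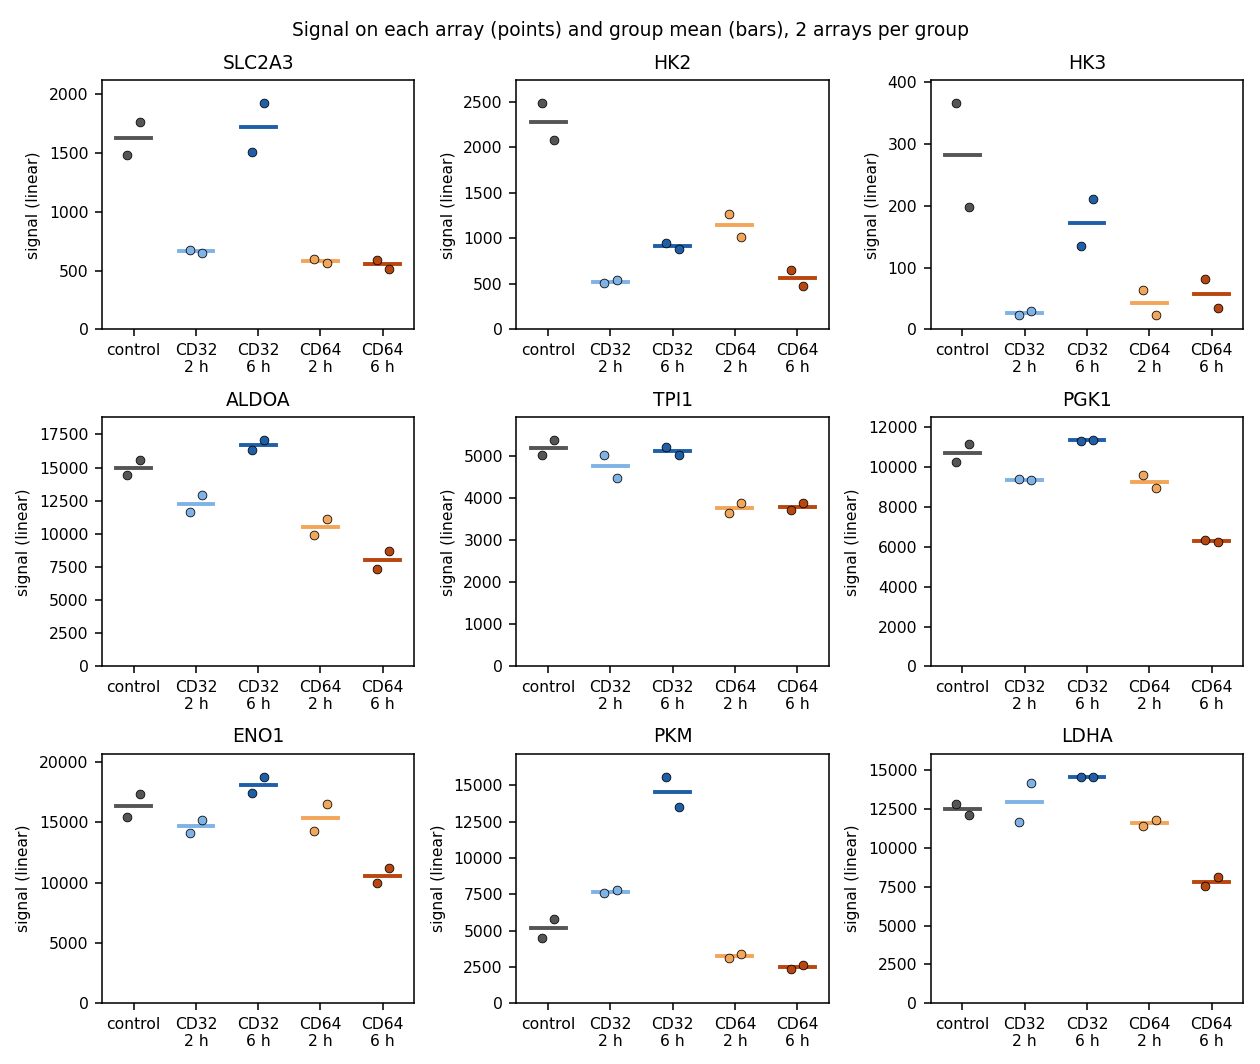
Signal (linear scale, from 0) of the 9 glycolytic genes on each of the 10 arrays, as points, with the group mean as a bar, for control and for CD32 or CD64 cross-linking of 2 h and 6 h. SLC2A3 is high in control and CD32 6 h only, HK2 is highest in control (2081 and 2489), and PKM is highest in CD32 6 h (13519 and 15584).

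HK2, the inducible hexokinase that sits on mitochondria, fell with both receptors and at both times. Control arrays read 2489 and 2081. After 2 h of CD32 they read 510 and 540, a fall of 4.34-fold (log2 -2.12 ± 0.16, adjusted p = 1.32e-05). After 6 h of CD32 they read 952 and 881, 2.48-fold below control (-1.31 ± 0.16, adjusted p = 0.000234). With CD64 the order of the times was the other way round. The arrays read 1271 and 1019 at 2 h, 2.00-fold below control (-1.0 ± 0.16, adjusted p = 0.0021), and 654 and 482 at 6 h, 4.05-fold below it (-2.02 ± 0.16, adjusted p = 1.56e-05). No array of a cross-linked group overlapped with control, and the lowest groups, CD32 2 h and CD64 6 h, overlapped with each other. At 2 h HK2 was 2.17-fold higher with CD64 than with CD32 (1.12 ± 0.16, adjusted p = 0.00121), and at 6 h it was 1.63-fold lower (-0.71 ± 0.16, adjusted p = 0.0128). The interaction of receptor and time was -1.82 ± 0.23 (adjusted p = 0.00083). The difference at 6 h was not called without CD32 6 h replicate 1 (adjusted p = 0.0888) or without CD64 6 h replicate 2 (adjusted p = 0.115).

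HK3, a hexokinase found mainly in white blood cells, was dim. Its signal was 366 and 198 in control, 22.6 and 30.5 after 2 h of CD32, 134 and 210 after 6 h of CD32, 63.0 and 24.1 after 2 h of CD64, and 81.2 and 34.5 after 6 h of CD64. The CD32 6 h arrays overlapped with control, and 4 of the other 6 cross-linked arrays lay under the floor. HK3 fell at least 7.18-fold after 2 h of CD32 (log2 -2.84 ± 0.50, adjusted p = 0.00324). In CD64 2 h and CD64 6 h 1 array each lay under the floor, so the fitted falls of 5.54-fold (-2.47 ± 0.50, adjusted p = 0.0075) and 4.88-fold (-2.29 ± 0.50, adjusted p = 0.00771) depend on the floor. Leaving out control replicate 1 took both CD64 calls away (adjusted p = 0.0554 and 0.0567), as did leaving out replicate 2 of the CD64 group concerned (adjusted p = 0.0648 and 0.0844). After 6 h of CD32 HK3 was not called (-0.68, interval -1.79 to 0.43). From 2 h to 6 h of CD32 it rose at least 4.48-fold (2.16 ± 0.50, adjusted p = 0.0372), a call lost without any 1 of the 4 CD32 arrays (adjusted p of 0.099 to 0.175).

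PKM, the pyruvate kinase of most tissues and the last step before lactate, went opposite ways with the 2 receptors. Control arrays read 4512 and 5825. CD32 arrays read 7598 and 7765 at 2 h and 15584 and 13519 at 6 h, and CD64 arrays read 3118 and 3363 at 2 h and 2380 and 2657 at 6 h. No neighbouring groups overlapped in this order. PKM rose 1.50-fold after 2 h of CD32 (log2 0.58 ± 0.13, adjusted p = 0.00971) and 2.83-fold after 6 h (1.50 ± 0.13, adjusted p = 1.73e-05). It fell 1.58-fold after 2 h of CD64 (-0.66 ± 0.13, adjusted p = 0.00513) and 2.04-fold after 6 h (-1.03 ± 0.13, adjusted p = 0.000205). Equally bright probe sets had median changes of -0.06, -0.01, 0.09 and -0.16 in these comparisons. The 2 h rise was not called without control replicate 1 (adjusted p = 0.0705) or without CD32 2 h replicate 1 (adjusted p = 0.0635) or 2 (adjusted p = 0.0677). Set against CD32, CD64 arrays were 2.37-fold lower at 2 h (-1.25 ± 0.13, adjusted p = 0.000152) and 5.77-fold lower at 6 h (-2.53 ± 0.13, adjusted p = 2.91e-06). The interaction was -1.28 ± 0.18 (adjusted p = 0.00129). PKM rose 1.89-fold from 2 h to 6 h of CD32 (0.92 ± 0.13, adjusted p = 0.00335), which was not called without CD32 2 h replicate 1 (adjusted p = 0.0524).

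The middle of the pathway was read at high signal. ALDOA, the aldolase that cuts the sugar into triose phosphates, read 14447 and 15533 in control, 11641 and 12917 in CD32 2 h, 16332 and 17086 in CD32 6 h, 9940 and 11142 in CD64 2 h, and 7329 and 8719 in CD64 6 h. Its 5 groups did not overlap. ALDOA fell 1.42-fold after 2 h of CD64 (log2 -0.51 ± 0.11, adjusted p = 0.0124), whereas equally bright probe sets rose by a median of 0.11. Leaving out control replicate 2 gave an adjusted p of 0.07 for this fall, and leaving out CD64 2 h replicate 1 gave 0.0939. It fell 1.87-fold after 6 h of CD64 (-0.91 ± 0.11, adjusted p = 0.000248), where its 200 equally bright probe sets also had a median of -0.44 and 132 of them fell. ALDOA's probe set carries the suffix that marks possible cross-hybridisation with similar transcripts. TPI1, which interconverts the triose phosphates, read 5030 and 5396 in control, 5045 and 4488 in CD32 2 h, 5228 and 5045 in CD32 6 h, 3657 and 3886 in CD64 2 h, and 3721 and 3889 in CD64 6 h. The CD32 arrays overlapped with control and the CD64 arrays did not. TPI1 fell 1.38-fold after 2 h of CD64 (-0.47 ± 0.09, adjusted p = 0.00554) and 1.37-fold after 6 h (-0.45 ± 0.09, adjusted p = 0.00425), beside medians of 0.13 and -0.10 at equal brightness.

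PGK1, the kinase of the first ATP-forming step, and ENO1, the enolase, were called against control in CD64 6 h alone with the deposited scaling. PGK1 read 10256 and 11180 in control, 9388 and 9341 in CD32 2 h, 11310 and 11367 in CD32 6 h, 9611 and 8936 in CD64 2 h, and 6363 and 6231 in CD64 6 h. It fell 1.70-fold after 6 h of CD64 (log2 -0.77 ± 0.09, adjusted p = 0.000139), beside a median of -0.39 at equal brightness. In the other 3 comparisons it was not called, with changes of -0.19 (interval -0.39 to 0.00), 0.08 (-0.11 to 0.28) and -0.21 (-0.40 to -0.01). Under cyclic loess normalization the last of these, after 2 h of CD64, was called (-0.34, adjusted p = 0.0176). ENO1 read 15414 and 17325 in control, 14138 and 15160 in CD32 2 h, 17411 and 18749 in CD32 6 h, 14238 and 16464 in CD64 2 h, and 9923 and 11220 in CD64 6 h. Its CD64 6 h change was 1.55-fold downward (-0.63 ± 0.12, adjusted p = 0.00279) as deposited, beside -0.44 at equal brightness. ENO1's value was 0.03 under quantile normalization (adjusted p = 0.878) and -0.24 under cyclic loess normalization, so its direction at 6 h of CD64 depends on the scaling.

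LDHA, which turns pyruvate into lactate, read 12848 and 12123 in control, 11671 and 14194 in CD32 2 h, 14568 and 14574 in CD32 6 h, 11398 and 11775 in CD64 2 h, and 7564 and 8101 in CD64 6 h. Only the CD64 6 h arrays stood far from the rest, the other 8 lying between 11398 and 14574. LDHA fell 1.59-fold there (log2 -0.67 ± 0.11, adjusted p = 0.00118), beside -0.44 at equal brightness. The change was -0.19 under quantile normalization (adjusted p = 0.244) and -0.33 under cyclic loess normalization, where it was still called.

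Taken by comparison, the genes that changed after CD32 went both ways and those that changed after CD64 went down. After 2 h of CD32 3 of 9 fell (SLC2A3, HK2 and HK3), against 6.6% of all probe sets tested, and 1 rose (PKM), against 8.86%. The median change of the 9 was -0.19, against -0.03 over all probe sets. At equal brightness 34 of 200 fell for SLC2A3, 35 for HK2 and 1 for HK3, and 25 rose for PKM. After 6 h of CD32 1 fell (HK2), against 10.3%, and 1 rose (PKM), against 9.63%, with a median of 0.08 against -0.08 over all. At equal brightness 50 of 200 fell for HK2 and 32 rose for PKM. After 2 h of CD64 6 fell, against 8.24%, and 0 rose, against 7.64%, with a median of -0.51 against -0.13. By limma 7 of the 9 had an unadjusted p under 0.05 there. At equal brightness 47 of 200 fell for SLC2A3, 43 for HK2, 5 for HK3, 7 for ALDOA, 25 for TPI1 and 23 for PKM. After 6 h of CD64 9 of 9 fell, against 9.94%, with a median of -0.91 against -0.04, and 0 rose, against 10.7%. The share that fell was far larger among bright probe sets. Of the 200 equally bright ones, 132 fell for ALDOA and for ENO1, 131 for LDHA, 114 for PGK1 and 64 for PKM. For TPI1 52 fell, for SLC2A3 44, for HK2 42 and for HK3 4. Once the median of equally bright probe sets was taken off each gene, the medians in these 4 comparisons were -0.11, 0.01, -0.62 and -0.47. Under both quantile and cyclic loess normalization 7 of the 9 falls after 6 h of CD64 were still called, ENO1 and LDHA being those not called under both. The 6 falls after 2 h of CD64 were called under both, but 0 of them by limma when only the CD64 2 h and control arrays were fitted, where 6 had an unadjusted p under 0.05. The 4 comparisons share the control arrays.

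**Figure D2:**
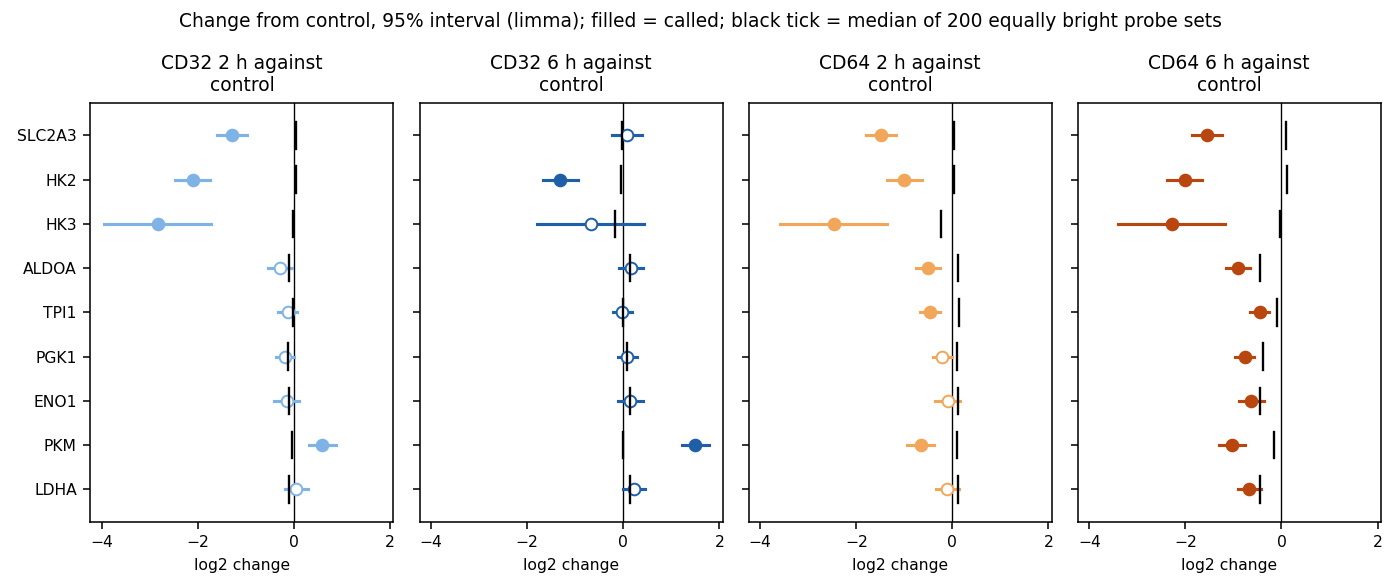
Log2 change from control of the 9 genes in the 4 cross-linked groups, with the 95% interval from limma. Filled points were called, and the black tick is the median of 200 equally bright probe sets, which lies at -0.44 for ALDOA, ENO1 and LDHA after 6 h of CD64.

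**Figure D3:**
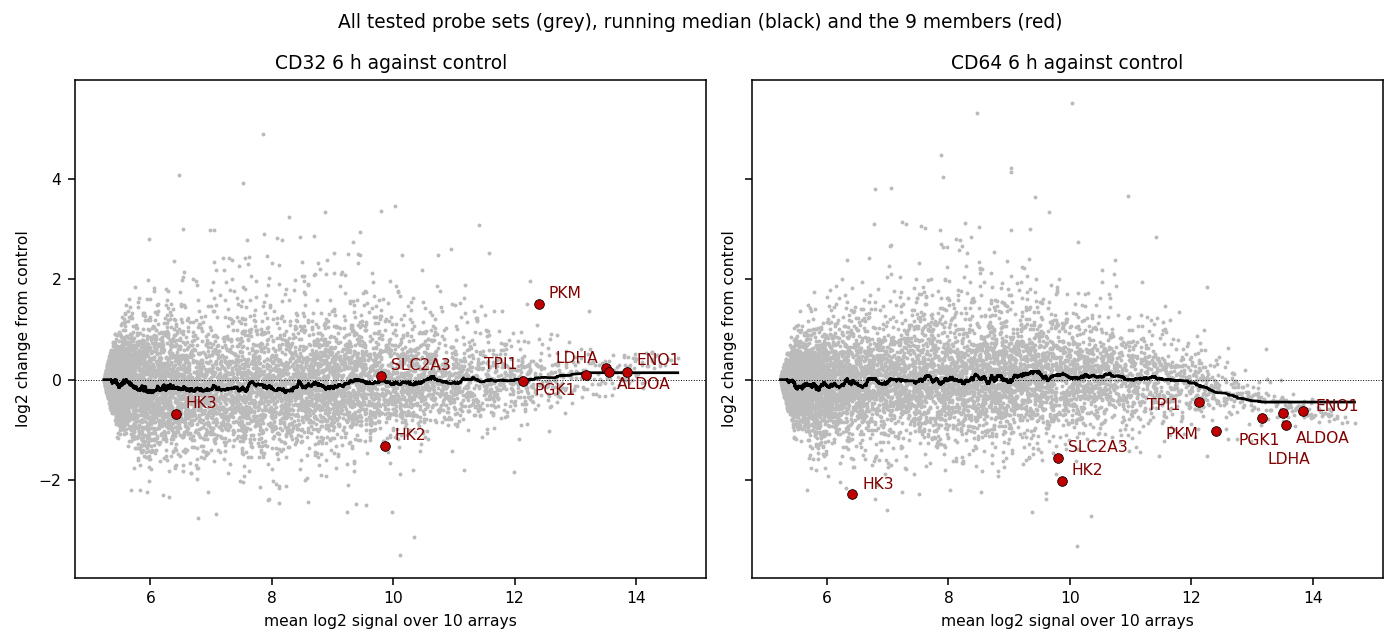
Log2 change from control after 6 h of CD32 (left) and of CD64 (right) against mean log2 signal over the 10 arrays for every probe set tested (grey), with their running median (black, constant at both ends) and the 9 genes in red. After 6 h of CD64 the running median bends downward at the bright end, and SLC2A3, HK2 and HK3 lie at signals where it stays near 0.

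The direct comparison of the receptors separated the genes by time. At 2 h CD64 arrays were higher than CD32 arrays in 1 of 9 genes (HK2), against 6.86% of all probe sets, and lower in 2 (PKM and TPI1), against 9.43%. The medians at equal brightness were -0.05 for HK2, 0.11 for PKM and 0.12 for TPI1. The TPI1 difference was -0.34 ± 0.09 (adjusted p = 0.0269) and was not called without CD32 2 h replicate 1 (adjusted p = 0.181) or without CD64 2 h replicate 1 (adjusted p = 0.147) or 2 (adjusted p = 0.0637). At 6 h CD64 arrays were lower in 8 of 9 genes, against 7.8%, and higher in 0, against 9.81%. Of the 200 equally bright probe sets, 136 were lower for ALDOA, ENO1 and LDHA, 119 for PGK1, 61 for PKM and 49 for TPI1. That number was 29 for SLC2A3 and 26 for HK2. HK3 was the gene not called, with -1.61 ± 0.50 and an adjusted p of 0.0505. SLC2A3 was 3.09-fold lower (-1.63 ± 0.14, adjusted p = 4.64e-05), ALDOA 2.09-fold (-1.06 ± 0.11, adjusted p = 0.000142), LDHA 1.86-fold (-0.90 ± 0.11, adjusted p = 0.00027), PGK1 1.80-fold (-0.85 ± 0.09, adjusted p = 0.00012), ENO1 1.71-fold (-0.78 ± 0.12, adjusted p = 0.00113) and TPI1 1.35-fold (-0.43 ± 0.09, adjusted p = 0.00731). At equal brightness the medians were -0.55 for ALDOA and ENO1, -0.54 for LDHA, -0.42 for PGK1, -0.15 for PKM, -0.11 for TPI1, 0.14 for HK2 and 0.15 for SLC2A3. TPI1 was not called without CD32 6 h replicate 1 (adjusted p = 0.054) or without CD64 6 h replicate 1 (adjusted p = 0.0585). SLC2A3, HK2, ALDOA, PGK1 and PKM were called under both other normalizations, as was HK3 (-1.70, adjusted p = 0.0427, and -1.72, adjusted p = 0.0195). LDHA was lost under quantile normalization (-0.25, adjusted p = 0.141), TPI1 under cyclic loess (-0.21, adjusted p = 0.0975) and ENO1 under both, with a value of 0.11 under quantile. The bacterial transcripts and the actin ratio, given above, differed most between these same 2 groups, and their part in the result was not tested. The change from 2 h to 6 h differed between the receptors in 7 of 9 genes, all with a lower value for CD64, against 4.75% of all probe sets, and 0 went the other way, against 6.72%. Of these 7, SLC2A3, HK2 and PKM were called under both other normalizations. ALDOA, PGK1, ENO1 and LDHA were called under neither of them, and their values of -0.84, -0.83, -0.84 and -0.74 stood beside medians of -0.75, -0.66, -0.75 and -0.75 at equal brightness. Of their 200 equally bright probe sets 135, 121, 135 and 134 were called lower, against 21 for SLC2A3, 19 for HK2 and 58 for PKM.

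**Figure D4:**
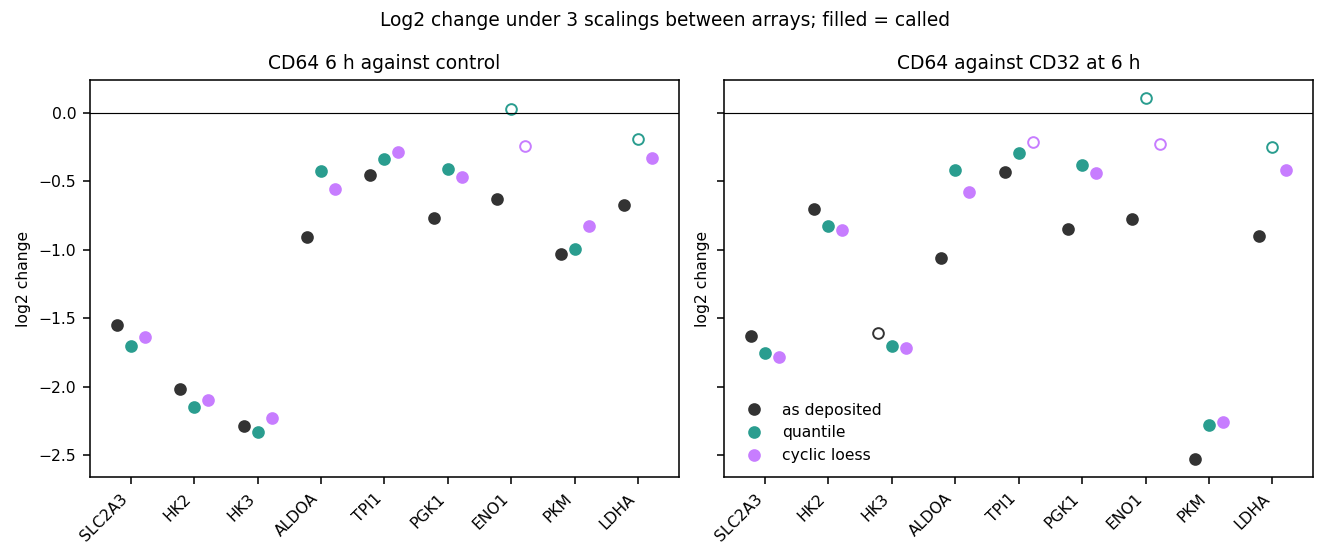
Log2 change of the 9 genes in CD64 6 h against control (left) and against CD32 6 h (right), with values as deposited, after quantile and after cyclic loess normalization. Filled points were called. The values of LDHA, PGK1 and ALDOA move toward 0 under both normalizations, and those of ENO1 move toward 0 under cyclic loess and cross it under quantile (0.03 and 0.11). PKM also moves toward 0, from -1.03 to -0.99 (quantile) and -0.83 (cyclic loess) against control. Against CD32 6 h PKM moves from -2.53 to -2.28 and -2.26, while SLC2A3 and HK2 move away from 0 in both panels.

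Over time CD32 and CD64 also differed. From 2 h to 6 h of CD32 4 of 9 genes rose (SLC2A3, HK2, HK3 and PKM), against 2.04% of all probe sets, and 0 fell, against 2.43%. By limma 7 of the 9 had an unadjusted p under 0.05. Among the 7, ALDOA, PGK1 and ENO1 changed by 0.45, 0.28 and 0.30, beside medians of 0.24, 0.18 and 0.24 at equal brightness. The medians were -0.11 for SLC2A3 and HK2, -0.10 for HK3 and 0.06 for PKM. Of the 200 equally bright probe sets, 31 rose for ALDOA and for ENO1 and 27 for PGK1. That number was 12 for SLC2A3, 11 for HK2, 1 for HK3 and 13 for PKM. HK2 rose 1.75-fold (log2 0.80 ± 0.16, adjusted p = 0.0209), which was not called without any 1 of the 4 CD32 arrays (adjusted p of 0.0803 to 0.143). From 2 h to 6 h of CD64 0 rose, against 7.56%, and 5 fell, against 6.25%. Of these 5 only HK2 was called under both other normalizations, with a fall of 2.03-fold (-1.02 ± 0.16, adjusted p = 0.0022) beside 0.03 at equal brightness. ALDOA, PGK1, ENO1 and LDHA fell by 0.40, 0.56, 0.54 and 0.57 log2 units, beside medians of -0.54, -0.48, -0.54 and -0.53 at equal brightness, so 0.14, -0.08, 0.00 and -0.04 log2 units from them. Of their 200 equally bright probe sets 142, 130, 142 and 142 fell, against 25 for HK2. ALDOA and ENO1 had a value above 0 after both normalizations. The ALDOA call was lost without any 1 of the 10 arrays except CD64 6 h replicate 2, control included, and ENO1's without CD64 2 h replicate 2 (adjusted p = 0.0886) or CD64 6 h replicate 1 (adjusted p = 0.0911).

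The neighbouring genes of glucose metabolism were taken from 8 lists. Their counts stand beside the shares of all probe sets, which in the order CD32 2 h, CD32 6 h, CD64 2 h and CD64 6 h were 6.6%, 10.3%, 8.24% and 9.94% lower and 8.86%, 9.63%, 7.64% and 10.7% higher, with medians of -0.03, -0.08, -0.13 and -0.04. A count of 1 in 12 or 1 in 10 lies at about those shares. They cover probe sets of every brightness, and no comparison at equal brightness was made for the lists. Bright genes of the lists, such as GAPDH (mean of 18916 in control) and TKT (7318), lie at signals that CD64 6 h arrays read lower. The part of this in the CD64 6 h counts was not tested. Of 12 other glycolytic enzymes and isoenzymes tested, 2 fell after 2 h of CD32, 1 after 6 h of CD32, 4 after 2 h of CD64 and 5 after 6 h of CD64, and 0 rose in any of these (limma, with 0, 1, 0 and 0 higher at an unadjusted p under 0.05). Their median changes were -0.24, -0.24, -0.37 and -0.39. PFKL, the liver-type phosphofructokinase, read 703 and 1016 in control and 394 and 328 after 2 h of CD64, a fall of 2.35-fold (log2 -1.23 ± 0.18, adjusted p = 0.0011). It fell 2.10-fold after 6 h of CD64 (-1.07 ± 0.18, adjusted p = 0.0016) and 1.84-fold after 2 h of CD32 (-0.88 ± 0.18, adjusted p = 0.0072), the last lost without control replicate 2 (adjusted p = 0.0515) or CD32 2 h replicate 2 (adjusted p = 0.0544). The aldolase ALDOC fell in 4 of 4 comparisons, most after 6 h of CD64 (-1.11 ± 0.18, adjusted p = 0.00149), where the call held under all 17 alternative settings. Its CD32 2 h call was lost without either control, either CD32 2 h or either CD64 6 h array (adjusted p of 0.0509 to 0.195), its CD32 6 h call without CD32 6 h replicate 1 (adjusted p = 0.0673) and its CD64 2 h call without CD64 2 h replicate 2 (adjusted p = 0.0528). HK1, the hexokinase of most tissues, fell 1.51-fold after 2 h of CD64 (-0.59 ± 0.16, adjusted p = 0.0305), a call lost without either control array, CD64 2 h replicate 1 or CD64 6 h replicate 2 (adjusted p of 0.0503 to 0.22). GAPDH read 18593 and 19238 in control and 9408 and 11772 after 6 h of CD64 (-0.85 ± 0.14, adjusted p = 0.00117), a call lost under quantile normalization (adjusted p = 0.205). Its 3 control probe sets, at the 3' end, middle and 5' end, read 10233, 10406 and 11614 on those arrays against 17221, 16973 and 19801 in control.

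Most enzymes of a further list set the level of a fructose bisphosphate that speeds phosphofructokinase, and 2 of the list rose. The list also holds FBP1, which acts on another fructose bisphosphate. Of 6 tested, 2 rose in each of the 4 comparisons with control, TIGAR and PFKFB3, against 7.64% to 10.7% of all probe sets, and 1 fell after 6 h of CD64, PFKFB4, against 9.94%. TIGAR, a p53-induced phosphatase that lowers glycolytic flux, read 88 and 81 in control and 400.0 and 362 after 2 h of CD64, a rise of 4.49-fold (log2 2.17 ± 0.29, adjusted p = 0.000648). It rose 4.0-fold after 6 h of CD64 (2.00 ± 0.29, adjusted p = 0.000607), and 2.27-fold and 2.29-fold after 2 h and 6 h of CD32 (adjusted p = 0.0194 and 0.0144). PFKFB3, a kinase that drives phosphofructokinase, read 389 and 238 in control and 575 to 846 on the 8 cross-linked arrays, rises of 2.14-fold to 2.47-fold (adjusted p of 0.00632 to 0.011). No PFKFB3 rise was called without control replicate 2 (adjusted p of 0.0523 to 0.0971), nor without CD32 2 h replicate 2, CD32 6 h replicate 1, CD64 2 h replicate 1 or CD64 6 h replicate 1 in the comparison that array belongs to (adjusted p of 0.0553 to 0.107). The TIGAR calls for CD32 were lost without control replicate 2, CD32 6 h replicate 1 or either CD32 2 h array (adjusted p of 0.0516 to 0.12), and the median changes of the list were 0.90, 0.21, 0.63 and 0.32, against -0.03, -0.08, -0.13 and -0.04 over all probe sets. PFKFB4 read 246 and 289 in control and 69 and 101 after 6 h of CD64 (-1.67 ± 0.45, adjusted p = 0.0222), a fall lost without any 1 of those 4 arrays (adjusted p of 0.0506 to 0.146).

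Of 6 genes of the hypoxia-inducible factors and their oxygen sensors, 2 rose in each of the 4 comparisons, against 7.64% to 10.7% of all probe sets, and 0 fell (limma, with 0, 1, 0 and 0 lower at an unadjusted p under 0.05). EPAS1, a factor of this family, read 145 and 189 in control, 466 and 461 in CD32 2 h, 359 and 461 in CD32 6 h, 273 and 296 in CD64 2 h, and 523 and 507 in CD64 6 h. Its rises were 2.80-fold, 2.46-fold, 1.72-fold and 3.11-fold (adjusted p = 0.00065, 0.00109, 0.0244 and 0.000216), the CD64 2 h rise being lost without control replicate 1 or either CD64 2 h array (adjusted p of 0.0774 to 0.121). HIF1A, the best known of these factors, read 1576 and 1333 in control and 2461 and 2384 after 6 h of CD64, a rise of 1.67-fold (log2 0.74 ± 0.11, adjusted p = 0.000575). Its smaller rises in the other 3 groups, of 0.34 to 0.42, were lost under quantile normalization (adjusted p of 0.0682 to 0.0946) and without control replicate 2 (0.117 to 0.214). Protein of these factors was not measured. Median changes of this list were 0.03, -0.21, -0.09 and 0.26.

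**Figure D5:**
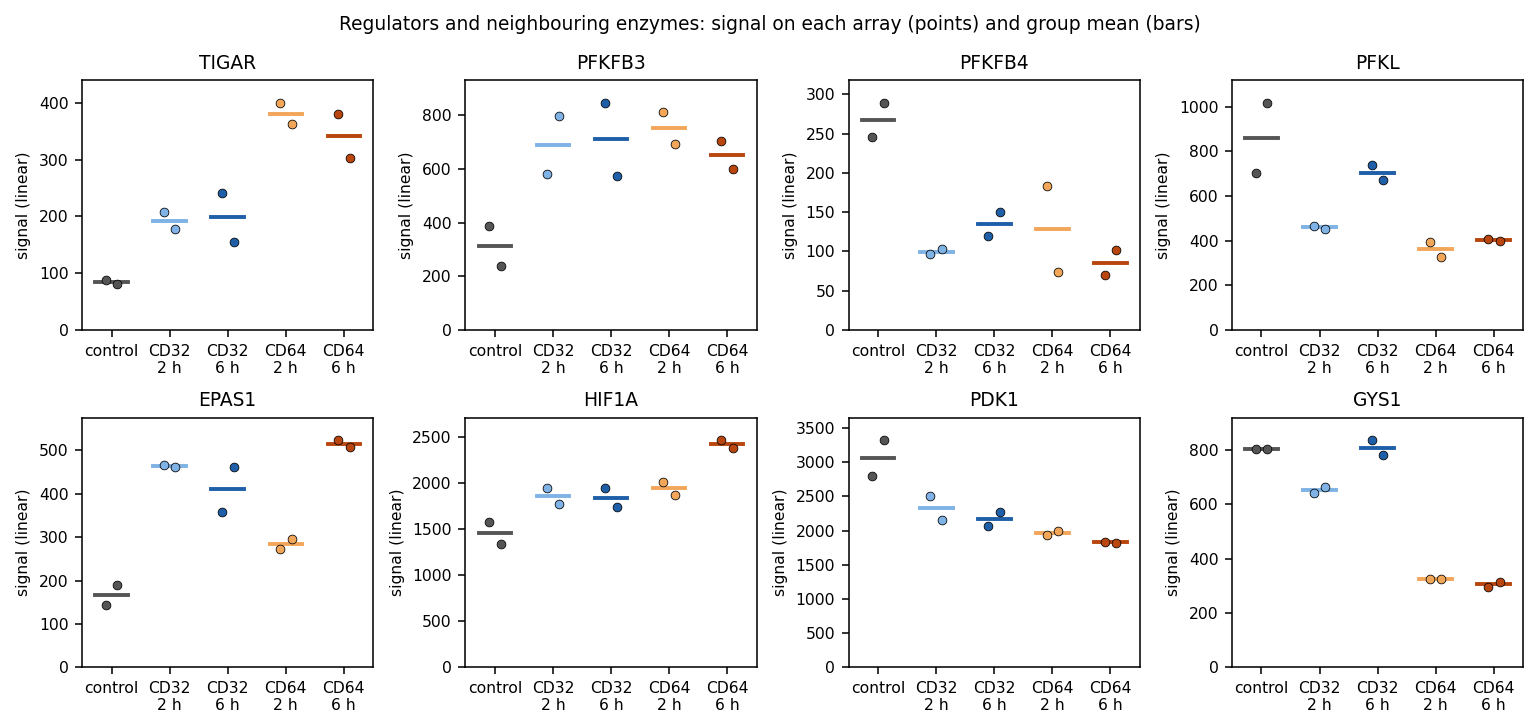
Signal (linear scale, from 0) on each of the 10 arrays, with group means as bars, of 8 genes beside the glycolytic set: TIGAR, PFKFB3, PFKFB4, PFKL, EPAS1, HIF1A, PDK1 and GYS1. TIGAR, PFKFB3 and EPAS1 are lowest in control, whereas PFKFB4, PFKL and PDK1 are highest there.

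The routes that leave glycolysis changed gene by gene. PDK1, the kinase that shuts pyruvate dehydrogenase, read 2801 and 3318 in control and fell 1.32-fold and 1.41-fold after 2 h and 6 h of CD32 and 1.55-fold and 1.67-fold after 2 h and 6 h of CD64 (adjusted p = 0.0315, 0.00829, 0.00275 and 0.000639). Its CD32 calls were lost without control replicate 2, CD32 2 h replicate 2, CD32 6 h replicate 1 or CD64 6 h replicate 2 (adjusted p of 0.0516 to 0.22). The dehydrogenase subunit PDHB fell 1.84-fold after 6 h of CD32 (log2 -0.88 ± 0.16, adjusted p = 0.00282). DLD, the subunit that this complex shares with others, rose 1.30-fold after 6 h of CD64 (0.38 ± 0.08, adjusted p = 0.00597). After 2 h and 6 h of CD32 and 2 h and 6 h of CD64, in that order, 2, 4, 1 and 1 of 10 genes of this list fell, against 6.6%, 10.3%, 8.24% and 9.94% of all probe sets. In the same order 0, 0, 0 and 1 rose, against 8.86%, 9.63%, 7.64% and 10.7%. The list's medians were 0.09, -0.21, -0.09 and 0.13. Of 5 pentose phosphate genes 0 changed with CD32, and 2 fell after 2 h and 1 after 6 h of CD64, against 8.24% and 9.94% of all probe sets, among them the transketolase TKT (-0.65 ± 0.11 at 6 h, adjusted p = 0.00203). At 2 h the TKT call was lost without either control or either CD64 2 h array (adjusted p of 0.0531 to 0.14), and that of PGD, a dehydrogenase of this pathway, without CD64 2 h replicate 2 (adjusted p = 0.0704). By limma 1 of the 5 had an unadjusted p under 0.05 at each time of CD32, and the list's medians there were -0.12 and 0.01.

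Of the genes of glycogen metabolism, GYS1 fell with CD64 and was not called with CD32. It encodes the glycogen synthase of most tissues and read 803 and 805 in control, 640.1 and 664 in CD32 2 h, 836 and 781 in CD32 6 h, 327 and 324 in CD64 2 h, and 296 and 315 in CD64 6 h. It fell 2.47-fold after 2 h (log2 -1.30 ± 0.13, adjusted p = 0.000103) and 2.63-fold after 6 h of CD64 (-1.40 ± 0.13, adjusted p = 2.97e-05). Set against CD32 it was 2.64-fold lower with CD64 at 6 h (adjusted p = 5.19e-05). The glycogen phosphorylase PYGL fell in 4 of 4 comparisons, from 1.34-fold after 2 h of CD32 to 1.74-fold after 6 h of CD64 (adjusted p = 0.0251 and 0.000424), the former lost without either control or either CD32 2 h array (adjusted p of 0.0629 to 0.138). The PYGL fall after 2 h of CD64 was lost without control replicate 1 (adjusted p = 0.0645) or CD64 2 h replicate 2 (adjusted p = 0.0955). The kinase GSK3B rose 2.50-fold after 6 h of CD32 (1.32 ± 0.20, adjusted p = 0.000872). PGM1, which converts the glucose phosphates of glycogen and glycolysis into each other, fell 1.38-fold after 6 h of CD64 (-0.46 ± 0.08, adjusted p = 0.0021). PCK2 fell 1.32-fold after 6 h of CD32 (-0.40 ± 0.12, adjusted p = 0.0365), a call that held under 4 of the 17 alternative settings. In the order CD32 2 h, CD32 6 h, CD64 2 h and CD64 6 h, 1, 3, 2 and 5 of 9 genes of this list fell, against 6.6%, 10.3%, 8.24% and 9.94% of all probe sets. The list's medians were -0.18, -0.28, -0.07 and -0.43, against -0.03, -0.08, -0.13 and -0.04. In the same order 2, 1, 0 and 0 of 7 other glucose carriers fell and 0, 0, 0 and 1 rose. The shares of all probe sets that rose were 8.86%, 9.63%, 7.64% and 10.7%. SLC2A5, a fructose carrier, fell 2.08-fold after 6 h of CD32 (-1.05 ± 0.10, adjusted p = 4.58e-05). SLC2A6, a carrier of intracellular membranes, was under the floor on both control arrays and rose at least 2.78-fold after 6 h of CD64 (1.48 ± 0.37, adjusted p = 0.0157), which was lost without any 1 of those 4 arrays (adjusted p of 0.0537 to 0.0881). That call was also lost at both other floors, where the log2 change was 2.79 with the lower floor (adjusted p = 0.0739) and 0.41 with the higher (adjusted p = 0.0522). SLC2A1, the widespread carrier GLUT1, read 853 and 490.4 in control and 313 and 419.5 after 2 h of CD32 (-0.84 ± 0.25, adjusted p = 0.0448), a call lost without any 1 of the 10 arrays except control replicate 2 (adjusted p of 0.055 to 0.29). Of 3 genes for lactate and pyruvate transport 0, 0, 1 and 0 fell and 0, 0, 1 and 1 rose, again in that order. BSG, a partner of the lactate carriers, fell 2.24-fold after 2 h of CD64 (-1.17 ± 0.18, adjusted p = 0.00138). MPC1, a mitochondrial pyruvate carrier, rose 1.55-fold after 6 h of CD64 (0.64 ± 0.14, adjusted p = 0.00831). That rise was lost without control replicate 1 (log2 0.48) or CD64 6 h replicate 1 (0.47). The MPC1 rise after 2 h of CD64 (0.48 ± 0.14, adjusted p = 0.0421) held under 7 of the 17 alternative settings.

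The genes whose 4 changes from control lay nearest to those of HK2, SLC2A3 and PKM were found among 6916 other probe sets by the root mean square of the 4 log2 differences. For HK2 they were HNRNPA1 (0.28), AFF1 (0.39) and FANCE (0.42). For SLC2A3 they were CBLN1 (0.25), APOC1 (0.29) and IRF1 (0.30). PKM had the closest neighbours, ZYX (0.18), CD4 (0.21) and PHKG2 (0.28). ZYX, which encodes the adhesion protein zyxin, changed by 0.53 and 1.17 after 2 h and 6 h of CD32 and by -0.57 and -1.13 after 2 h and 6 h of CD64, against 0.58, 1.50, -0.66 and -1.03 for PKM.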

How the data were processed

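The table analysed holds 8793 probe sets of a 1-colour oligonucleotide array on 10 arrays. Values are linear signal intensity, which the authors deposited already scaled: the mean without the lowest and highest 2% was 500.5 to 500.6 on each array. The software is not given in the sources used here. Probe sets were named from the platform annotation (7840 with 1 symbol, 388 with several, 518 with none), and 47 control probe sets were left out of tests. Values under 37.5, the 25th percentile of all values, were set to it and log2 was taken, and 7708 probe sets above it on at least 2 arrays were tested. limma 3.58.1 (R 4.3.3) was fitted with 1 term per group and a variance trend over all 10 arrays, leaving 5 residual and 5.65 prior degrees of freedom, and was tested on simulated data. The array number limits the precision. Where both arrays of a group lay under the floor, a fold is a lower bound. The genes and lists were chosen with earlier results of these data known. Genes named are all members, up to 3 called genes with the largest change per list and comparison with control, and the 3 nearest patterns of HK2, SLC2A3 and PKM. Alternatives covered the normalization, floor, filter, variance trend, arrays fitted and leaving out each array.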

Additional observations from a re-analysis of the deposited data

Results flagged for a closer look

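The change from 2 h to 6 h differed between CD64 and CD32, by the interaction term of limma, in 7 of the 9 genes, against 4.75% of all probe sets called lower and 6.72% called higher. The log2 change with CD64 minus that with CD32 was -1.43 for SLC2A3, -1.82 for HK2, -1.28 for PKM, -0.843 for ALDOA, -0.833 for PGK1, -0.841 for ENO1 and -0.744 for LDHA (adjusted p from 0.00083 to 0.0104). SLC2A3, HK2 and PKM were called under all 17 alternatives. For ALDOA, PGK1, ENO1 and LDHA the call was lost under both other normalizations, and equally bright probe sets had medians of -0.75, -0.66, -0.75 and -0.75. Of those 200 probe sets 135, 121, 135 and 134 were called lower.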

How the results depend on the processing

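Counts of the 9 genes called moved with the arrays fitted, the variance trend and the normalization. With only the groups compared, which left 2 residual degrees of freedom for a pair of groups, limma called 2 in CD32 2 h against control, 4 in CD64 6 h against control, 1 in CD64 against CD32 at 2 h, and 0 in CD64 2 h against control, CD32 6 h against 2 h and CD64 6 h against 2 h (6, 7 and 5 at an unadjusted p under 0.05). Without the variance trend the counts were 3 in CD64 2 h against control, 1 in CD32 6 h against 2 h, 2 in CD64 6 h against 2 h and 4 for the interaction. Without the filter on dim probe sets 2 were called in CD32 6 h against 2 h. Quantile and cyclic loess normalization gave 1 and 2 in CD64 6 h against 2 h and 3 and 4 for the interaction, and cyclic loess gave 5 in CD64 against CD32 at 2 h. In CD64 6 h against 2 h the 2 under cyclic loess were HK2, which fell, and TPI1, which rose (0.27, adjusted p = 0.0499). Over all probe sets called in CD32 6 h against 2 h, 45.6% were higher as deposited and 56.1% after cyclic loess.

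Leaving out each array in turn gave 3 to 4 genes in CD32 2 h against control, 2 in CD32 6 h, 5 to 6 in CD64 2 h, 8 to 9 in CD64 6 h, 2 to 3 in CD64 against CD32 at 2 h and 6 to 9 at 6 h. It gave 1 to 5 in CD32 6 h against 2 h (4 with all arrays, 1 without CD32 2 h replicate 1, 2 without any other 1 of the CD32 arrays), 3 to 5 in CD64 6 h against 2 h (5 with all arrays, 3 without CD64 2 h replicate 2 or CD64 6 h replicate 1) and 7 each time for the interaction.

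Quantile normalization turned the sign of these log2 differences. In CD32 6 h against control ALDOA became -0.0058, PGK1 -0.024 and ENO1 -0.075, and in CD64 6 h against control ENO1 became 0.030. ENO1 became -0.16 in CD64 against CD32 at 2 h and 0.11 at 6 h. In CD32 6 h against 2 h TPI1 became -0.00096, ENO1 -0.011 and LDHA -0.13, and in CD64 6 h against 2 h ALDOA became 0.14 and ENO1 0.25. For the interaction ALDOA became 0.012, TPI1 0.17, ENO1 0.26 and LDHA 0.085. Cyclic loess normalization turned PGK1 to -0.032 and ENO1 to -0.0089 in CD32 6 h against control, ENO1 to -0.16 in CD64 against CD32 at 2 h, LDHA to -0.015 in CD32 6 h against 2 h, HK3 to -0.071, ALDOA to 0.10 and ENO1 to 0.011 in CD64 6 h against 2 h, and TPI1 to 0.24 for the interaction. The cause of these turns was not tested.

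Leaving out 1 array turned only differences that were not called: LDHA ranged from -0.10 to 0.19 in CD32 2 h against control, SLC2A3 from -0.10 to 0.25 and TPI1 from -0.071 to 0.030 in CD32 6 h, and ENO1 from -0.20 to 0.011 in CD64 2 h. In CD64 against CD32 at 2 h PGK1 ranged from -0.068 to 0.037 and ENO1 from -0.040 to 0.17. In CD64 6 h against 2 h SLC2A3 ranged from -0.17 to 0.025, HK3 from -0.37 to 0.74 and TPI1 from -0.031 to 0.057. SLC2A3 and HK2 in CD32 2 h and CD64 6 h, HK2 and PKM in CD32 6 h, and PGK1 in CD64 6 h, each against control, were called under all 17 alternatives.

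No paired analysis was possible because replicate numbers were given for the control arrays only, the others being named as an array and its duplicate. The alternatives were also applied to the neighbouring genes after the data were seen, and 43 of their 53 largest calls were lost when only the groups compared were fitted. Signals near the floor (HK3) and the 2 arrays per group limit the precision most. The cyclic loess setting assumes that most transcripts of a given brightness did not change, and the quantile setting that all arrays share the same distribution of signal.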
